A study of Mus musculus with 14 samples.

Results

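The mitochondrial ribosomal protein genes were taken as every row of the deposited count tables whose symbol begins with Mrpl or Mrps followed by a digit and whose gene type in the deposited annotation is protein-coding. Of 55291 rows, 84 carried such a symbol, 6 of them were processed pseudogenes, and Mrpl39 and Mrps6 were left out because they lie within 10 Mb of App on chromosome 16. The remaining 76 genes lie on 17 chromosomes. By the textbook composition of the ribosome, 30 encode large-subunit proteins with a bacterial homologue, 20 large-subunit proteins specific to mitochondria, 15 small-subunit proteins with a bacterial homologue and 10 small-subunit proteins specific to mitochondria. The last is Mrps36, whose product is now assigned to the 2-oxoglutarate dehydrogenase complex.

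The mitochondrial ribosome translates the few mRNAs encoded by mitochondrial DNA, all of which specify subunits of the respiratory chain and ATP synthase. Its ribosomal RNAs come from mitochondrial DNA, whereas every one of its proteins is encoded in the nucleus, made in the cytosol and imported. Neurons depend on oxidative phosphorylation for synaptic transmission and ion pumping, and both genomes have to supply parts for this machinery.

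The study compared gene expression in the dentate gyrus between 2 genotypes of mouse. One was C57BL/6J (APP+/+, 6 libraries, called wildtype here), and the other carried the gene-targeted deficiency of the amyloid precursor protein (APP-/-, 8 libraries, called APPko). Entorhino-hippocampal slices were prepared at postnatal day 4 to 5 and matured in culture for at least 18 days, and each library came from the polyadenylated RNA of 1 dentate gyrus cut from 1 culture with a scalpel. The labels call the libraries biological replicates but do not say which cultures shared an animal or litter, so p-values measure the spread between these cultures, and they do not say whether the APP-deficient mice were littermates of the wildtype. The deficiency is a germline one, so it was present in every cell and throughout development. In bulk tissue, fewer cells of a type and less RNA per cell cannot be told apart.

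App itself ranged from 679 to 964 CPM (counts per 1e6 counts of a library, after scaling between libraries) in wildtype and from 182 to 231 CPM in APPko, with no overlap, which matches the genotype labels; counts on the gene were reduced, not at 0. The libraries held 16686909 to 31031126 counts. Wildtype libraries 2 and 3 stood apart with scaling factors of 0.852 and 0.847, against 0.976 or more in the other 12, and wildtype 1, 5 and 6 held the fewest counts. The header of each count table carries the suffix f for wildtype 1 to 3 and APPko 1 to 7 and in m for wildtype 4 to 6 and APPko 8; the labels do not explain the letters, and they are unevenly spread over the genotypes. The granule cell marker Prox1 was present at 158 ± 40.5 CPM in wildtype cultures (SD, n = 6) and 151 ± 33.4 CPM in APPko cultures (SD, n = 8). The summed level of 10 granule cell markers was 820 to 1554 CPM in wildtype and 631 to 1023 CPM in APPko. By estimate 8 of these were lower in APPko and 2 higher. Of the 10, 3 were called lower by the test used below (1.41% of all genes were). Values for these 3 without wildtype 2 and 3 are not given here. The summed level of 10 microglial markers was 476 to 911 CPM in wildtype and 658 to 1156 CPM in APPko. By estimate 7 of these were higher in APPko and 3 lower. Of the 10, 2 were called higher, Tyrobp and C1qb (0.944% of all genes were). Their edgeR adjusted p were 0.110 and 0.238 without wildtype 2 and 3. Summed markers of mossy cells and CA fields, interneurons, astrocytes, the oligodendrocyte lineage and vessels overlapped between the genotypes with no gene called. The part of these markers in the results was not tested.

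The 3 promoter or start-site sequences below were chosen because they belong to the members the comparison turns on and for which a sequence could be matched: Mrpl52, one of the genes called higher; Mrpl42, the gene with the largest decrease by estimate; and the interval between Mrps12 and its divergent neighbour Sars2. All are from RefSeq, build GRCm38.p6, read 5′ to 3′ on the strand of the member. Capitals in the first mark ACTTCCGG, the reverse complement of the GABPA/ETS core CCGGAAGT, which begins at base 2 of the transcript. Capitals in the second mark ATTGG, the reverse complement of the CCAAT box, 218 bases before the start. In the third they mark 4 CCAAT boxes, 156, 108, 68 and 19 bases before the start of Mrps12. The windows are chr14:54426659-54426918 on the plus strand, ending with 10 transcript bases, chr10:95501950-95502199 on the minus strand and chr7:28741822-28741991 on the minus strand.
Mrpl52: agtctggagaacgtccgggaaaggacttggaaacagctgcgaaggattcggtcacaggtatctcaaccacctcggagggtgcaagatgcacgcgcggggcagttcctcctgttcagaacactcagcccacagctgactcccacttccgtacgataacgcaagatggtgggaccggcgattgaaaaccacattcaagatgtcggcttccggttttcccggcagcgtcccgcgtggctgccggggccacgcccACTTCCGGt
Mrpl42: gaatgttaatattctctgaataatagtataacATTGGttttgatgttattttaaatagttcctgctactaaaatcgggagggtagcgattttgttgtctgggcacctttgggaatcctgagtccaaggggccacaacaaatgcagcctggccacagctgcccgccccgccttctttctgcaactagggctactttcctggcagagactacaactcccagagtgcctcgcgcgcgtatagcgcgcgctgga
Mrps12: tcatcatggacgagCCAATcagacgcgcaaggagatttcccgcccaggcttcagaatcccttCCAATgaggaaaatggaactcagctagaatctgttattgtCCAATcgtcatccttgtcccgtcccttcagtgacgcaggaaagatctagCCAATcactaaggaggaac

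A promoter sequence was found for 67 of the 76 genes. GABPA and NRF1 are known as transcription factors of nuclear genes for mitochondrial proteins, and exact matches on either strand in the 250 bases before to 50 after a start were counted as a description of sequence. CCGGAAGT occurred in 12 of 67 members (17.9%) and in 5.83% of 16735 other protein-coding genes. TGCGCA, the repeated part of the NRF1 site, was found in 20 (29.9%, against 11.2%). AAGATGGC, the core of a YY1 motif, was present in 12 members (17.9%, against 3.54%). CCAAT was about as frequent in members as elsewhere, at 38.8% against 42.3%, and TATAAA was found in 7.46% against 14.6%. The windows held a median of 21 CpG dinucleotides (range 7 to 39), against 14 in the other genes. These promoters thus carry many CpG and, in a minority, ETS-type letters, and few carry a TATA box.

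Of the 76 genes, 75 passed the filter on low counts. Of these, 3 rose in APPko, Mrpl4, Mrpl54 and Mrpl52, all proteins of the large subunit, by 1.43-fold to 1.75-fold, and none fell, by edgeR's quasi-likelihood test with Benjamini-Hochberg adjustment over 22150 genes at a threshold of 0.05. The 3 are 4.00% of the 75, beside 2.35% of all genes tested (0.944% higher and 1.41% lower). None of the 75 had libraries of the genotypes that did not overlap (of all genes, 0.506% were wholly higher and 0.609% wholly lower). At an unadjusted p under 0.05, edgeR gave 15 members as higher and 5 as lower, where 20.4% of all genes passed in either direction. DESeq2 called 6 members higher and 1 lower, Mrpl42, together 9.33% of members, beside 11.5% of all genes for which it gave an adjusted p; limma voom called 3 higher and none lower, beside 1.59% of all genes. The log2 change (APPko minus wildtype) was positive for 45 of 75 members (60.0%) against 48.3% of all genes, with medians of 0.07 and −0.01, and ran from −0.87 to 0.81. With the header suffix as a covariate, 9 members were higher and 3 lower (6.53% of all genes were called). In the f libraries alone, which hold wildtype 1 to 3 and APPko 1 to 7, 10 were higher and 12 lower, the members' median was −0.09 and 15.6% of all genes were called. No member was called when any one of wildtype 2, wildtype 3 and APPko 1, 2, 4, 5, 6 and 7 was left out (0.174% to 0.670% of all genes were), 1 was without APPko 8 (1.42% of all genes), and without wildtype 4 there were 9 higher and 3 lower (6.36% of all genes). All 3 calls were lost without both wildtype libraries 2 and 3, when 0.147% of all genes were called. In that fit 67 of 75 changes were positive, and the median was 0.21, against −0.02 over all genes. Without wildtype 1, 5 and 6, 15 members were lower and 4 higher, with Mrpl4, Mrpl52 and Mrpl54 among the 4. The members' median was then −0.06, against 0.07 over all genes, and 17.6% of all genes were called.

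**Figure D1:**
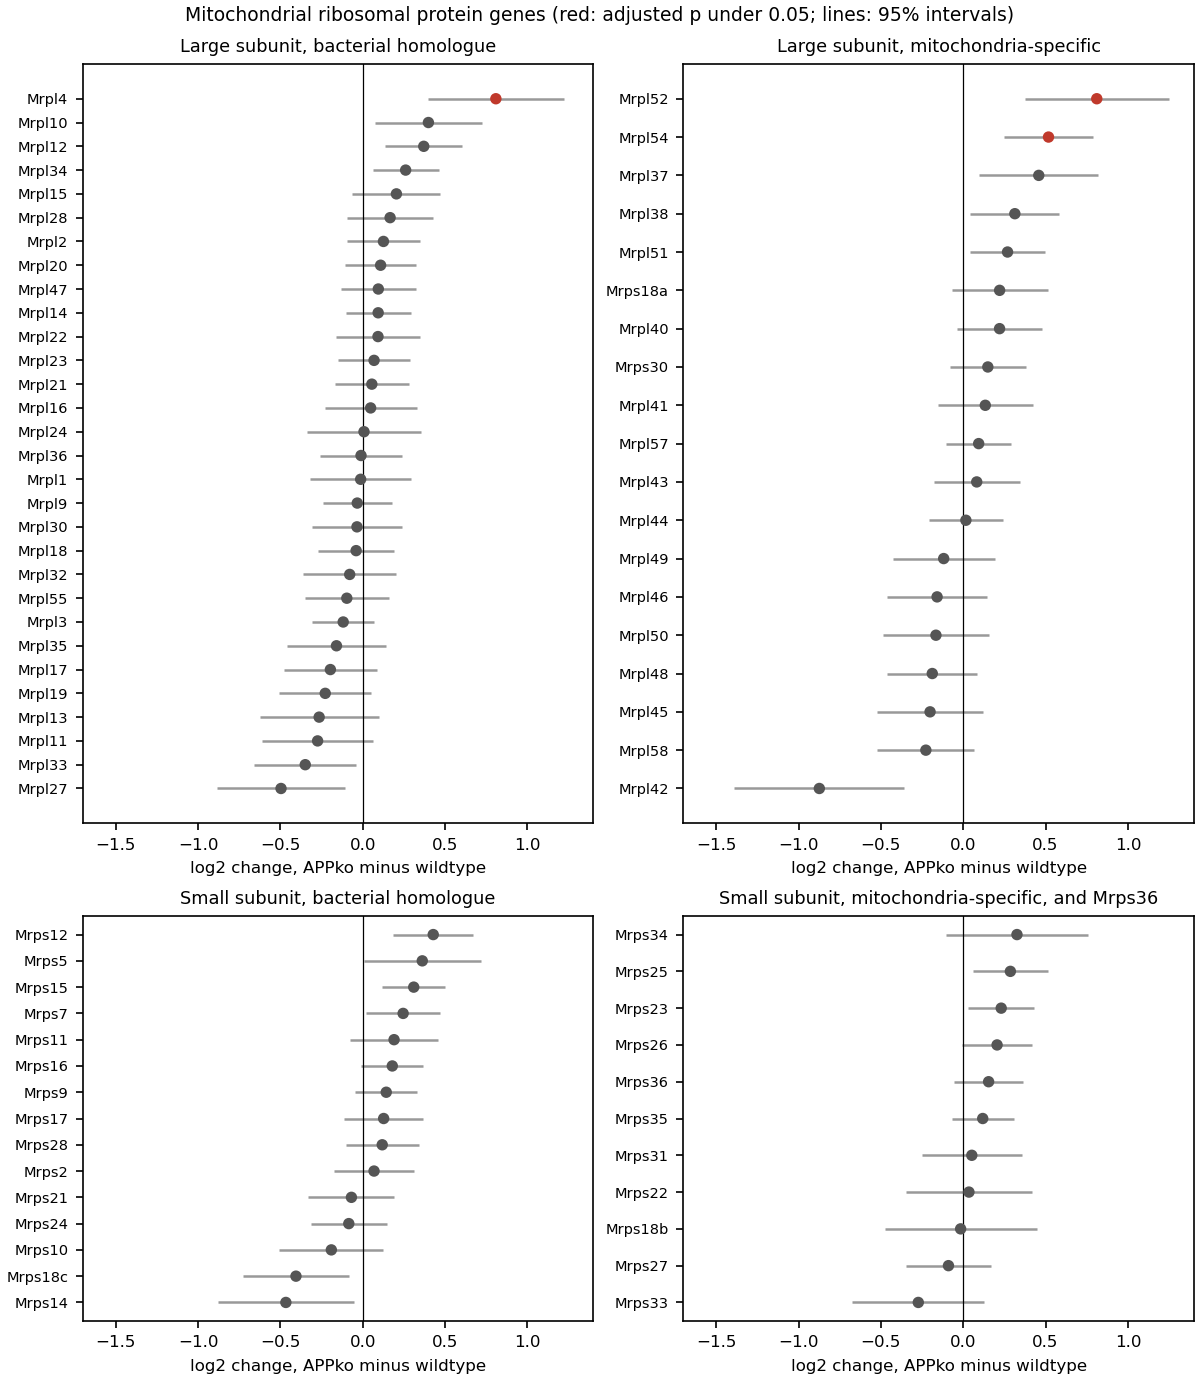
Log2 change in APPko against wildtype for the 75 genes tested, grouped by subunit and by whether the protein has a bacterial homologue; points are edgeR estimates, lines their 95% intervals, and red marks an adjusted p under 0.05. Mrpl4, Mrpl52 and Mrpl54 are red on the right, Mrpl42 lies farthest left at −0.87 with a wide interval, and most intervals cross 0.

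Mrpl4 (ENSMUSG00000003299.10, chr9:21002738-21008839, plus strand) encodes a homologue of bacterial L4, which lines the tunnel through which the nascent chain leaves the ribosome. Its lowest, median and highest levels were 15.3, 29.1 and 50.1 CPM in wildtype and 37.8, 56.1 and 60.3 CPM in APPko. The groups overlapped through wildtype 4, the highest of its group, which lay above APPko 3 and APPko 6; wildtype 2 was lowest. The mean rose from 30.3 ± 12.3 CPM (SD, n = 6) to 53.2 ± 7.89 CPM (SD, n = 8), a log2 change of 0.81 with a standard error (SE) of 0.198 and an edgeR adjusted p of 0.0426. Without wildtype 2 and 3 the change was 0.59 with an edgeR adjusted p of 0.163.

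Mrpl52 (ENSMUSG00000010406.12, chr14:54426909-54429756, plus strand), whose start region is printed above, encodes a large-subunit protein with no bacterial counterpart. Its lowest, median and highest levels were 22.3, 56.4 and 62.2 CPM in wildtype and 61.3, 81.8 and 104 CPM in APPko. Wildtype 2 (22.3 CPM) and wildtype 3 (27.6 CPM) were far below the other wildtype libraries (54.1 to 62.2 CPM), and the groups overlapped only where the highest wildtype library passed APPko 8. The mean was 47.6 ± 17.9 CPM (SD, n = 6) in wildtype and 83.6 ± 15.6 CPM (SD, n = 8) in APPko, with a log2 change of 0.81, an SE of 0.209 and an edgeR adjusted p of 0.0479. The change was 0.51 without wildtype 2 and 3, with an edgeR adjusted p of 0.102.

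Mrpl54 (ENSMUSG00000034932.4, chr10:81264713-81266934, minus strand) also belongs to the mitochondria-specific part of the large subunit. Its lowest, median and highest levels were 37.0, 51.8 and 69.99 CPM in wildtype and 65.3, 70.7 and 90.5 CPM in APPko. Here wildtype 1 was lowest and wildtype 4 the only wildtype library within the APPko range. The mean rose from 51.8 ± 11.9 CPM (SD, n = 6) to 74.2 ± 8.85 CPM (SD, n = 8), a log2 change of 0.52 (SE 0.129, edgeR adjusted p 0.0442). It was 0.44 without wildtype 2 and 3 (edgeR adjusted p 0.193). The exons of these 3 genes do not overlap another annotated gene.

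**Figure D2:**
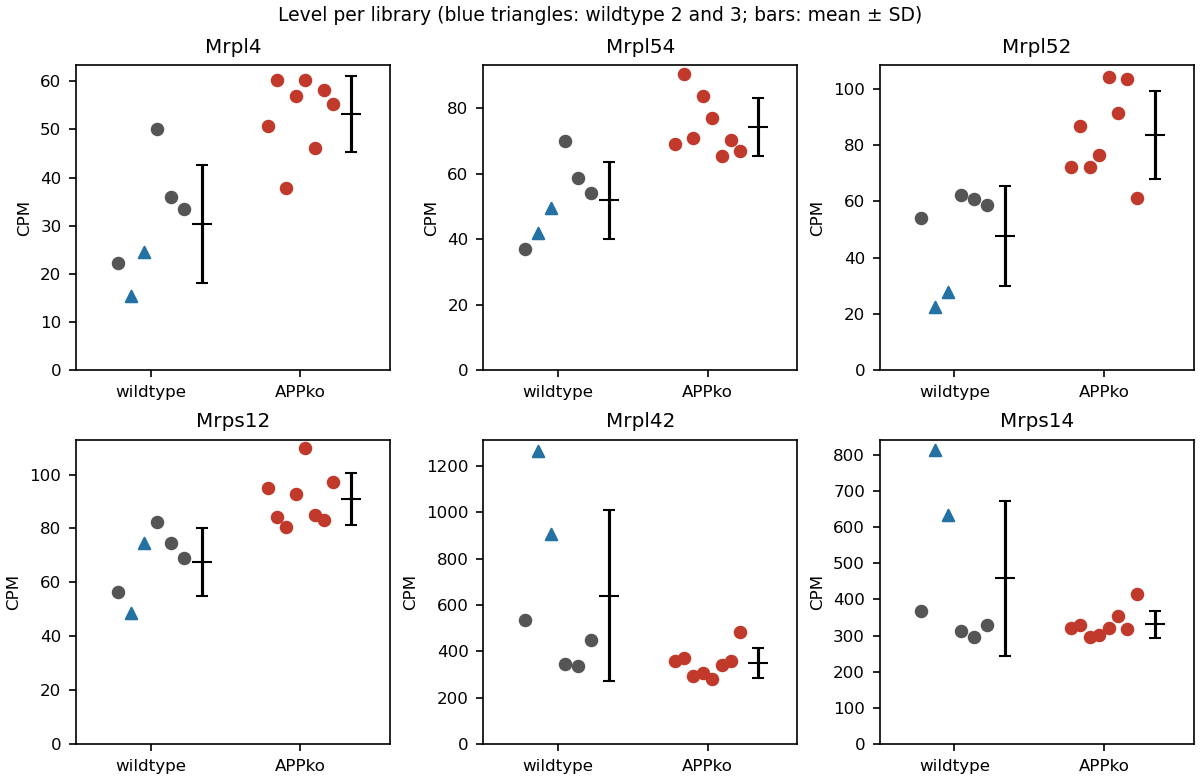
CPM in each library for 6 of the genes, with blue triangles for wildtype 2 and 3, grey circles for the other wildtype libraries and red circles for APPko; bars are the mean ± SD of each genotype. The triangles lie above every other point for Mrpl42 and Mrps14 and below every other point for Mrpl52, whereas in Mrpl54 and Mrps12 they lie among the other wildtype libraries or near them.

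Of all 30 large-subunit genes with a bacterial homologue, Mrpl4 included, 15 had a positive change, and the median was −0.0010. Mrpl12 encodes a protein of the stalk that recruits translation factors, and Mrpl10 the protein that holds the stalk to the body of the subunit. Mrpl12 was at 64.7 ± 13.1 CPM in wildtype cultures (SD, n = 6) and 83.7 ± 5.65 CPM in APPko cultures (SD, n = 8), with an edgeR adjusted p of 0.0744; Mrpl10 had a log2 change of 0.40 and an edgeR adjusted p of 0.154. Mrpl34, for a small basic protein, had 50.5 ± 5.99 CPM and 60.6 ± 5.57 CPM (SD, n = 6 and 8) and an edgeR adjusted p of 0.134. The estimates on the other side were Mrpl27, for a protein near the peptidyl transferase centre, and Mrpl33, for a small protein, with log2 changes of −0.50 and −0.35 and edgeR adjusted p of 0.137 and 0.187. Mrpl27 was at 276 CPM in wildtype 2 and 219 CPM in wildtype 3, whereas the other wildtype libraries (108 to 125 CPM) lay within the APPko range of 101 to 128 CPM. Without those 2 libraries its log2 change was −0.02. Mrpl27 had the highest and Mrpl19 the lowest level per length among these genes, at 135 and 7.62 CPM per kb of exon over the 14 libraries. Of the 5450 exon bases of Mrpl19, 1962 are also exon of Gcfc2 on the other strand.

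The mitochondria-specific genes of the large subunit hold both extremes. Of 19 tested, 12 had a positive change, and the median was 0.09. The 2 called, Mrpl52 and Mrpl54, are 10.5% of these, beside 2.35% of all genes, and neither was called without wildtype 2 and 3. Mrpl42 (chr10:95480805-95501940, minus strand), the promoter of which is printed above, had lowest, median and highest levels of 339, 494 and 1265 CPM in wildtype and of 280, 350 and 484 CPM in APPko. Wildtype 2 (1265 CPM), wildtype 3 (907 CPM) and wildtype 1 (536 CPM) lay above every APPko library, and wildtype 4 to 6 within their range. The mean was 641 ± 370 CPM (SD, n = 6) and 350 ± 63.8 CPM (SD, n = 8), a log2 change of −0.87 (SE 0.247) that did not pass the test (edgeR adjusted p 0.0630), and −0.25 without wildtype 2 and 3 (edgeR adjusted p 0.526). Mrpl37, Mrpl38 and Mrpl51 had positive log2 changes of 0.46, 0.31 and 0.27 with edgeR adjusted p of 0.140, 0.175 and 0.170. Mrpl44, which carries an RNase III-like fold, was at 35.4 ± 4.43 CPM and 35.8 ± 4.48 CPM (SD, n = 6 and 8), with a 95% interval for its log2 change of −0.21 to 0.24. Mrpl41 had the highest level of all members tested, 266 CPM per kb, and Mrps30, a large-subunit protein despite its symbol, the lowest, 3.18 CPM per kb.

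No small-subunit gene passed the edgeR test. At an unadjusted p under 0.05, 6 were higher and 2 lower (20.4% of all genes passed); DESeq2 called 2 higher, Mrps12 and Mrps15 (11.5% of all genes), and limma voom none (1.59% of all genes). Of the 25, 17 had a positive change, with a median of 0.13 for the 15 with a bacterial homologue and 0.08 for the 10 specific to mitochondria; the corresponding median over the 49 large-subunit genes was 0.05, and the difference between subunits was not tested. Mrps12 (chr7:28739641-28741820, minus strand), homologue of the bacterial S12 of the decoding centre, was nearest to the threshold. Its lowest, median and highest levels were 48.7, 71.7 and 82.4 CPM in wildtype and 80.6, 88.7 and 110 CPM in APPko. The genotypes overlapped through wildtype 4, the highest of its group. Mean levels were 67.6 ± 12.7 CPM (SD, n = 6) and 91.0 ± 9.75 CPM (SD, n = 8), with a log2 change of 0.43 and an edgeR adjusted p of 0.0562. Mrps15, for an rRNA-binding protein of the small subunit, was at 74.7 ± 10.4 CPM and 92.7 ± 4.10 CPM (SD, n = 6 and 8; edgeR adjusted p 0.0722). Among the positive estimates for genes with a bacterial homologue, Mrps7 and Mrps5 came next by p, with log2 changes of 0.25 and 0.36 and edgeR adjusted p of 0.200 and 0.233.

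Mrps14 and Mrps18c had negative estimates. Mrps14, whose bacterial homologue sits in the head of the small subunit, was at 297, 348 and 813 CPM (lowest, median and highest) in wildtype and 296, 320 and 414 CPM in APPko. Wildtype 2 (813 CPM) and wildtype 3 (633 CPM) were above all other libraries, and the remaining 4 wildtype libraries lay within the APPko range. The log2 change was −0.47 with an edgeR adjusted p of 0.187, and 0.03 without wildtype 2 and 3. Mrps18c, for a small-subunit homologue of bacterial S18, was at 129 ± 40.6 CPM and 97.2 ± 8.95 CPM (SD, n = 6 and 8; edgeR adjusted p 0.140); its exons overlap another gene on the same strand. Mrps25 and Mrps23, both specific to mitochondria, had log2 changes of 0.29 and 0.23 and edgeR adjusted p of 0.144 and 0.181. Of the 6576 exon bases of Mrps25, 4590 are also exon of Nr2c2 on the other strand. By level per length, Mrps21 (231 CPM per kb) and Mrps33 (161 CPM per kb) were highest and Mrps5 (7.53 CPM per kb) and Mrps35 (3.26 CPM per kb) lowest in the 2 role groups. Mrps36 was at 64.2 CPM in wildtype and 71.5 CPM in APPko, with a log2 change of 0.15 and an edgeR adjusted p of 0.407.

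Mrpl53, a mitochondria-specific large-subunit gene, did not pass the filter. It had 6 counts over all 14 libraries, and 695 of its 790 exon bases are also exon of another annotated gene on the same strand, Gm42688, which had 24 counts. In all, 31 of the 76 genes share exon bases with another gene, 7 on the same strand and 27 on the other, and whether the authors' counting used strand is not given in the sources used here. Their counts are uncertain for this reason. The 45 members without such overlap had 31 positive changes, a median of 0.12 and all 3 calls (6.67%, beside 2.35% of all genes). The 30 tested with overlap had 14 positive changes and a median of −0.01. The difference between these groups was not tested. The levels of the members' processed pseudogenes were low: 5 tested pseudogenes had mean levels from 1.18 to 3.81 CPM and none was called. Mrpl27-ps was at 7.03 and 6.26 CPM in wildtype 2 and 3, the same libraries in which Mrpl27 was high.

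As a set, the 76 genes took up 6247 to 8246 of each 1e6 counts in wildtype and 6757 to 7883 in APPko, with means of 6934 ± 835 (SD, n = 6) and 7168 ± 321 (SD, n = 8). The members were expressed at a median of 29.8 CPM per kb, against 3.27 CPM per kb over all protein-coding genes tested. The coefficient of variation between libraries ran from 9.85% (Mrps16) to 57.7% (Mrpl42) in wildtype and from 4.42% (Mrps15) to 20.7% (Mrps18b) in APPko. The mean of the members' log2 levels, each centred on its mean over libraries, was lowest in wildtype 1 (−0.28), 5 (−0.20) and 6 (−0.17) and highest in wildtype 3 (0.20), APPko 8 (0.18) and wildtype 2 (0.14). Wildtype libraries thus formed both ends, and APPko lay from −0.14 to 0.18.

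**Figure D3:**
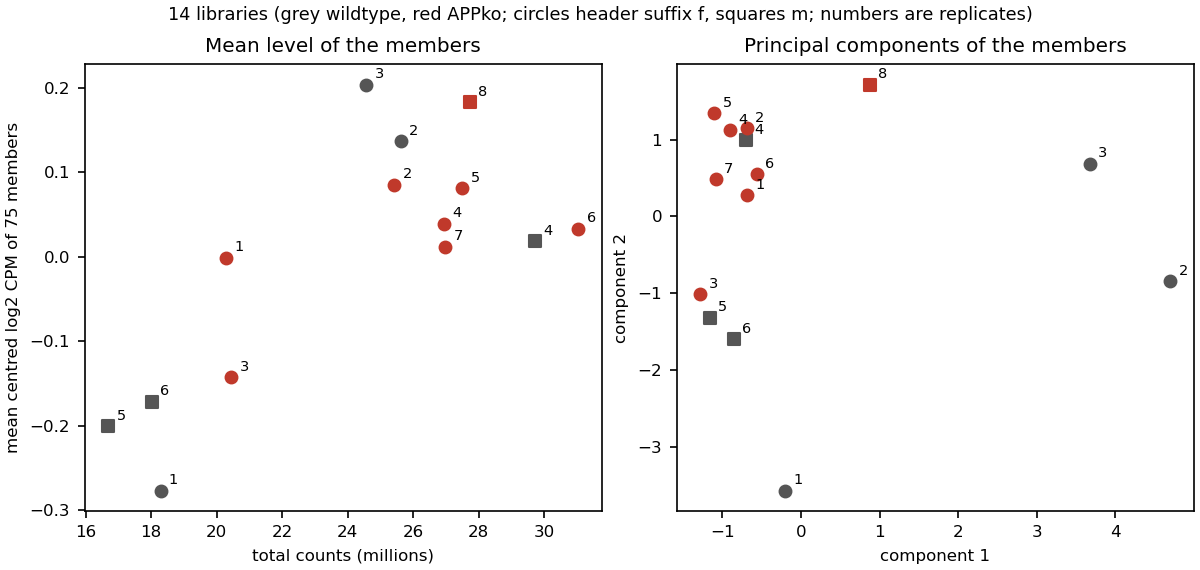
Left, the mean centred log2 CPM of the 75 tested genes in each library against its total counts; right, the first and second principal components of the same genes, with grey for wildtype, red for APPko, circles for header suffix f, squares for m and numbers for replicates. Wildtype 1, 5 and 6 lie low on the left at the smallest totals, and wildtype 2 and 3 lie apart on the first component.

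The first principal component of the 75 genes carried 52.6% of their variance and separated wildtype 2 (4.70) and wildtype 3 (3.68) from the other 12 libraries, which lay from −1.28 to 0.87. Its weights ran from Mrpl52 (−0.31), Mrpl4 (−0.24) and Mrps5 (−0.19) to Mrpl27 (0.22), Mrps14 (0.23) and Mrpl42 (0.32). Mrpl54, the other gene called, had a smaller weight (−0.11). The second component, with 32.8%, ran from wildtype 1 (−3.57) to APPko 8 (1.72).

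The change of a member went with the base composition of its transcripts. Across the 75 genes, the log2 change against mean transcript GC content had a Pearson r of 0.512 and a Spearman rho of 0.504; across 15674 other protein-coding genes they were 0.399 and 0.448. These are correlations across genes measured in the same libraries, and genes are not independent replicates. Without wildtype 2 and 3 r was 0.365 for the members and 0.276 for the other genes. The members' change also went with their level: against mean log2 CPM, r was −0.453 and rho −0.417. Among the 19 members of lowest GC (40.2 to 47.3%), which include Mrpl42 (45.6%) and Mrps14 (44.7%), 7 changes were positive and the median was −0.09. Other genes in this GC range had a median of −0.17. The steps between were uneven: 12 of the 19 members at 47.6 to 51.3% GC were positive (median 0.07) and 9 of the 18 at 51.6 to 54.5% (median 0.0029), where 41.4% and 58.9% of other genes were positive. Among the 19 of highest GC (54.6 to 62.2%), which hold Mrpl52 (58.6%), Mrpl4 (59.6%) and Mrpl54 (60.8%), 17 were positive with a median of 0.25; other genes in this range had a median of 0.19 and were positive in 75.1%. Once a smooth trend of counts on GC had been removed, no member was called (0.985% of all genes were). In that fit 38 of the 75 changes were positive, with a median of 0.0034, against −0.03 over all genes. The log2 changes of Mrpl4, Mrpl52 and Mrpl54 were then 0.56, 0.60 and 0.21, with edgeR adjusted p of 0.104, 0.0657 and 0.468, so that the estimate of Mrpl54 moved most in proportion. The part of GC content in the differences beyond this was not tested.

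**Figure D4:**
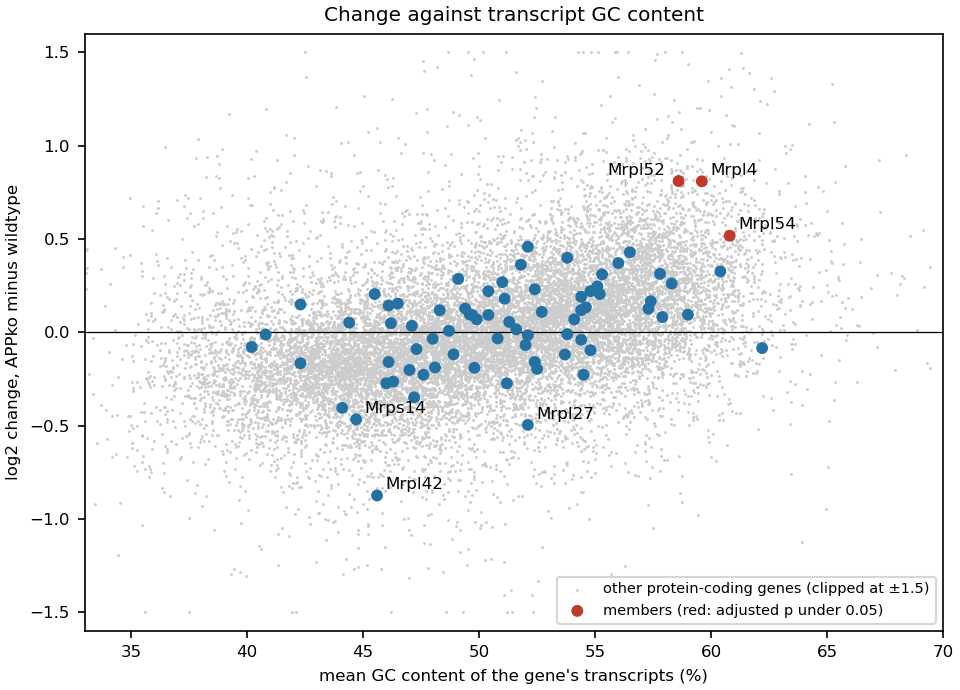
Log2 change in APPko against wildtype plotted against the mean GC content (%) of a gene's transcripts for the 75 members (blue, red if called) and other protein-coding genes (grey, drawn at the limit beyond ±1.5). Both clouds rise from lower left to upper right, and the 3 red points lie above 58% GC.

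A further property the members share is their arrangement. For 32 of the 76 (42.1%), another protein-coding gene starts within 1000 bp on the opposite strand, against 10.4% of 21756 other protein-coding genes. One such pair, Mrpl46 and Mrps11, consists of 2 members, and 30 pairs of a member with another gene were tested. In 16 of the 30 both estimates had the same sign, and across the 30 pairs, which share their libraries, Pearson's r was 0.341. Of the 30 partners, 1 was called, where 2.35% of all genes were. This was Wdfy1, which starts 125 bp from Mrpl44. It rose from 37.3 ± 5.70 CPM (SD, n = 6) to 76.6 ± 11.6 CPM (SD, n = 8), with a log2 change of 1.04 and an edgeR adjusted p of 0.000369. Wdfy1 passed with each library left out in turn. Its libraries did not overlap between the genotypes (32.9 to 47.9 and 49.5 to 86.5 CPM), while those of Mrpl44 had nearly equal means, as given above. Apba3, which starts 26 bp from the called Mrpl54, had a log2 change of 0.67 and an edgeR adjusted p of 0.151. Sars2, across the interval printed above from Mrps12, encodes the mitochondrial seryl-tRNA synthetase and was at 3.44 and 3.72 CPM, with an edgeR adjusted p of 0.807.

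**Figure D5:**
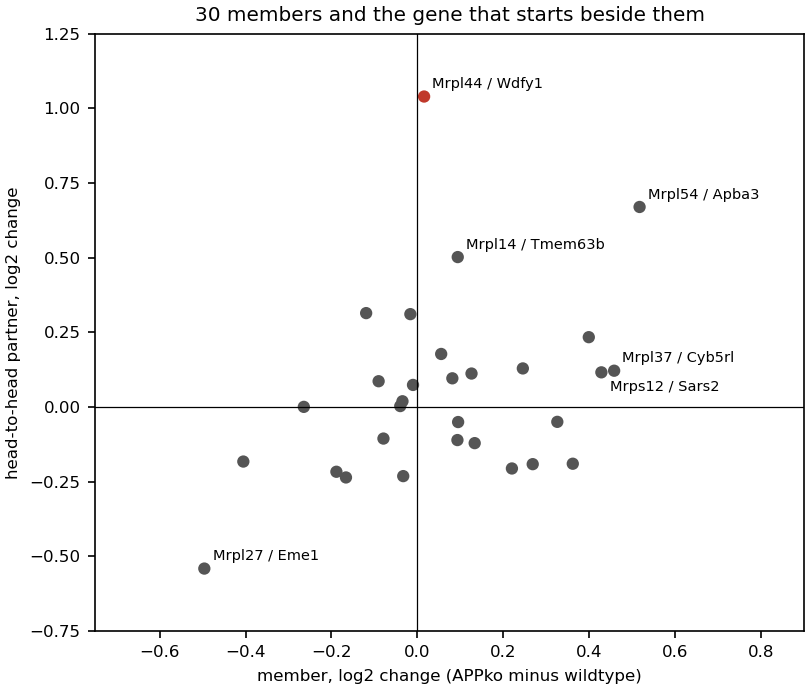
Log2 change (APPko minus wildtype) of 30 members and of the protein-coding gene that starts within 1000 bp on the opposite strand; red marks a partner with an adjusted p under 0.05. Wdfy1 stands alone at 1.04 above Mrpl44 near 0, and the other pairs scatter on both sides of the axes.

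Neither of the 2 genes left out near App was called. Mrpl39 (chr16:84717576-84735742) was at 55.4 ± 14.1 CPM in wildtype and 60.1 ± 9.02 CPM in APPko (SD, n = 6 and 8; edgeR adjusted p 0.711). Mrps6 was at 50.3 ± 8.64 CPM and 65.3 ± 6.11 CPM (SD, n = 6 and 8), a log2 change of 0.38 with an edgeR adjusted p of 0.0608.

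Other nuclear genes of mitochondrial gene expression, 88 in 6 lists, gave no edgeR call. At an unadjusted p under 0.05, 5 were higher and 10 lower (20.4% of all genes passed); DESeq2 called 2 higher and 3 lower (11.5% of all genes) and limma voom none (1.59% of all genes). Of 5 mitoribosomal proteins under other symbols, 3 had a positive change; Aurkaip1 was at 171 and 194 CPM in wildtype and APPko (edgeR adjusted p 0.280) and Gadd45gip1 at 12.9 and 15.5 CPM (edgeR adjusted p 0.320). Of 28 genes for assembly and rRNA modification, 16 were positive with a median of 0.02; Mpv17l2, a large-subunit assembly factor, was at 13.5 ± 3.54 CPM and 19.7 ± 2.25 CPM (SD, n = 6 and 8; edgeR adjusted p 0.0558), and Trub2, a pseudouridine synthase, had a log2 change of −0.28 (edgeR adjusted p 0.169). Of 14 translation and membrane insertion factors, 5 were positive with a median of −0.15. The elongation factor gene Tsfm had a log2 change of 0.58 and the GTPase gene Guf1 of −0.36 (edgeR adjusted p 0.0976 and 0.0933). Of 20 genes for aminoacyl-tRNA synthetases and the amidotransferase, 9 were positive. Iars2, for isoleucine, was at 31.9 to 41.3 CPM in wildtype and 26.3 to 31.8 CPM in APPko (edgeR adjusted p 0.0742). It was the 1 gene of these 88 with no overlap, where 0.506% of all genes were wholly higher and 0.609% wholly lower. Lars2, for leucine, had the widest spread, 109 ± 86.6 CPM and 328 ± 152 CPM (SD, n = 6 and 8; edgeR adjusted p 0.163). Of 12 genes for transcription and replication of mitochondrial DNA 5 were positive, and of 9 regulators of biogenesis 4. Polg2 and Mterf1a each had a log2 change of −0.45, with edgeR adjusted p of 0.132 and 0.209. The coactivator gene Ppargc1a was at 86.2 and 70.4 CPM (edgeR adjusted p 0.115) and Nrf1 at 11.3 and 13.8 CPM (edgeR adjusted p 0.232).

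On the RNAs these ribosomes contain and read, mt-Co3, which encodes a subunit of cytochrome c oxidase, fell from 113 ± 31.0 CPM (SD, n = 6) to 72.3 ± 5.09 CPM (SD, n = 8), with a log2 change of −0.64 and an edgeR adjusted p of 0.0276. Without wildtype 2 and 3 its change was −0.45 (edgeR adjusted p 0.145), and it passed in 6 of the 14 fits with 1 library left out. It was the 1 of 13 mitochondrial mRNAs called; 9 of the 13 had a positive change. The small-subunit rRNA mt-Rnr1 ranged from 6192 to 12547 CPM in wildtype and from 2955 to 10284 CPM in APPko (log2 change −0.73, edgeR adjusted p 0.113), and the large-subunit rRNA mt-Rnr2 had a log2 change of −0.29 (edgeR adjusted p 0.364). The rRNA levels come from libraries made from polyadenylated RNA. RNAs encoded by mitochondrial DNA made up 6.402 ± 0.960% of counts in wildtype cultures (SD, n = 6) and 5.95 ± 0.754% in APPko cultures (SD, n = 8). For comparison, of 75 cytosolic ribosomal protein genes tested, 15 were higher and none lower (20%, beside 2.35% of all genes). Of the 75, 71 had a positive change (94.7%, against 48.3% of all genes) and the median was 0.33. Values for this set without wildtype 2 and 3 are not given here. The difference from the mitochondrial set was not tested.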

How the data were processed

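Polyadenylated RNA of 14 dentate gyri was sequenced, and the authors deposited 1 table of whole-number counts per gene for each library. Reads were trimmed with cutadapt 3.5, aligned with STAR 2.7.8a to GRCm38/mm10 and counted with featureCounts 2.0.1, per the submitters' processing notes; whether counting used strand or multimapping reads is not stated there. Amplification by PCR without molecular identifiers, per the labels' protocols, means that counts are not independent molecules. The deposited GENCODE vM25 annotation gave gene types, positions and exons, and reference transcripts of the same build gave GC content.

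The members, lists and alternatives were chosen with earlier results of these data known. Genes were filtered with filterByExpr, scaled by TMM and tested with edgeR 4.0.16 (glmQLFit, glmQLFTest; R 4.3.3) on genotype alone, over all 22150 genes passing, with Benjamini-Hochberg adjustment at 0.05; the procedure was tested on simulated data. CPM use TMM-scaled library sizes; principal components and centred levels use log2 CPM with a prior count of 2. Alternatives used DESeq2 1.42.0, limma 3.58.1, other filters and scalings, GC and length trends, the header suffix, a replicate block and libraries left out. Named were App and the 2 genes left out; members called; the 15 positive and 5 negative changes of smallest p; in each role group, the 2 of smallest p and the highest and lowest levels; members not tested; Mrps36; the extremes of variation; and the 2 genes of smallest p per other list. Head-to-head partners and printed sequences were picked after their values were seen. Replicates of a genotype differed beyond sampling noise in all 43 pairs (chi-square per degree of freedom from 8.78). Replicate numbers were not used as pairs in the main test. Promoters are RefSeq windows of GRCm38.p6.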

Additional observations from a re-analysis of the deposited data

Results flagged for a closer look

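In 8 of 88 groups examined (9.09%, where chance gives about 1 in 20), 1 library lay far from the rest of its genotype, by the gap to its nearest neighbour as a share of the range. APPko 8, the only APPko library with header suffix m, was highest for Mrpl42 (484 CPM, next 371), Mrps33 (347 CPM, next 254) and Mrpl41 (332 CPM, next 259). APPko 3 was lowest for Mrps7 (51.2 CPM, next 65.9) and Mrps18b (9.76 CPM, next 15.8) and highest for Ppargc1a (90.6 CPM, next 73.6). Wildtype 4 was highest for Mrpl10 (34.9 CPM, next 22.2), and wildtype 1 for Mrps6 (66.6 CPM, next 49.7).

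The genotype difference was also compared between libraries with suffix m and those with suffix f, as an interaction in edgeR, which called 411 of 22150 genes and 6 of 75 members. The estimate for m minus f was 1.53 for Mrps33, 1.80 for Mrpl42, 1.23 for Mrpl13, 1.32 for Mrps14, 0.96 for Mrps18c and −1.41 for Mrps5, with edgeR adjusted p from 0.0242 to 0.0423. In f libraries Mrpl42 had a log2 ratio of −1.45 and in m libraries of 0.35. APPko with suffix m is APPko 8 alone, so these p-values take the spread from the other groups and assume that this library varies as they do. The wildtype f side is 3 libraries of which 2 are wildtype 2 and 3, so suffix and single libraries cannot be told apart.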

How the results depend on the processing

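Of the named members' estimates under all alternatives, 763 kept their sign and side of the threshold, 44 no longer passed it, 43 newly passed it and 20 changed sign. All 44 belong to Mrpl4, Mrpl54 and Mrpl52, the only members called in the main fit. These passed in 11, 11 and 10 of 16 alternatives, and in 5, 4 and 5 of 14 fits with 1 library left out. The 3 genes called were called again with RLE size factors, limma voom, a filter of 1 CPM in 6 libraries, protein-coding genes alone, and without mitochondrially encoded genes or genes within 10 Mb of App. Members higher and lower, then all genes higher and lower, were 6 and 1, 749 and 1052 with DESeq2; 1 and 0 with no expression filter (170 genes lower); 1 and 0, 137 and 205 with the length trend removed; 0 and 0, 84 and 134 with the GC trend removed; 9 and 3, 718 and 728 with the suffix as covariate; 10 and 12, 1674 and 1998 in f libraries alone, where the members' median was −0.088; 0 and 0, 19 and 16 without wildtype 2 and 3; and 4 and 15, 1831 and 2415 without wildtype 1, 5 and 6 (added after seeing the data). Voom called 170 genes lower and gave 60 of 75 members a positive change, with a median of 0.15. With the length trend removed 37 were positive, with a median of −0.00057. Libraries of the 2 genotypes that share a replicate number had correlations of deviations from −0.339 to 0.186. These were not compared with other pairings, so they cannot settle whether the numbers mark pairs. The replicate block on libraries 1 to 6 gave 0 members, 9 genes higher and 11 lower. The same 12 libraries unpaired (also added after seeing the data) gave 0 members, 12 genes higher and 15 lower. Leaving out 1 library gave 0 to 9 members higher and 0 to 3 lower, a median of 0.04 to 0.16, and 22 to 735 genes higher and 16 to 701 lower. No member was called without wildtype 2 or 3 or APPko 1, 2, 4, 5, 6 or 7; without wildtype 4, 9 were higher and 3 lower. The cause was not tested.

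Some estimates changed sign, among them Mrps14, whose reported change is −0.47. Mrps21 was at 0.000586 with voom, 0.058 without wildtype 1, 5 and 6, and −0.16 to 0.063 with 1 library left out. Mrps18b was at 0.25 with voom, 0.022 with no filter, 0.0066 in protein-coding genes, 0.036 under the replicate block, 0.40 without wildtype 2 and 3, and −0.14 to 0.17 with 1 library left out. With the GC trend removed Mrpl34 was at −0.035 and Mrpl41 at −0.039; Mrpl41 was at −0.088 in f libraries and −0.12 without wildtype 1, 5 and 6. Without wildtype 2 and 3, Mrps14 was at 0.030, Mrpl19 at 0.027 and Mrps33 at 0.10. With 6 counts in all, Mrpl53 was tested only with no expression filter.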
